A study of Homo sapiens with 33 samples.

Results

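The proteasome and ubiquitin conjugation genes are the spots of a human cDNA array that carry exactly 1 gene symbol in the platform annotation, where that symbol begins with PSMA, PSMB, PSMC, PSMD, PSME, UBE2, USP or CUL. The rule found 179 spots of 93 genes among the 34560 spots of the array, of which 18025 have exactly 1 gene symbol. The members were described in classes: 31 spots of 21 proteasome genes, 47 spots of 20 ubiquitin-conjugating enzyme genes, 79 spots of 38 deubiquitinase genes and 14 spots of 7 cullin genes. A further 8 spots of 7 genes share the letters but not the function (PSMA3-AS1, PSME3IP1, UBE2Q2P13, USP2-AS1, USP27X-DT, USP46-DT and USP6NL). They are kept out of these classes, but they are among the 179 spots and are included in the counts over all members. Another 13 spots that name a member beside other genes were left out.

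The samples were 2 established human cell lines, CaCo-2, an adherent epithelial line from a colon carcinoma, and THP-1, which came from a monocytic leukaemia and grows in suspension. Each line was measured without stimulation and after tumour necrosis factor alpha (TNF) at 5 ng/ml for 60 min. Radioactively labelled cDNA was hybridised to nylon membranes, and each spot has an intensity on a linear scale. Of 33 deposited columns, 22 arrays were used: 5 of unstimulated CaCo-2 cells, 5 of TNF-treated CaCo-2 cells, 5 of unstimulated THP-1 cells and 7 of TNF-treated THP-1 cells. Each array reads the pooled RNA of a culture, so fewer cells of a type and less RNA per cell cannot be told apart, and the labels do not say which arrays come from separate cultures, so that p-values measure the spread between arrays only.

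Ubiquitin is a small protein that cells attach to other proteins in a relay: an activating enzyme (E1) loads it, a conjugating enzyme (E2, the UBE2 genes) carries it, and a ligase (E3) chooses the target. Cullins are the scaffolds of a large ligase family and hold the E2 at one end and a substrate adaptor at the other. The 26S proteasome degrades proteins tagged in this way. Its barrel is built of PSMA and PSMB subunits, with the proteolytic sites on certain PSMB subunits, and its regulatory cap holds the PSMC ATPases, which unfold the substrate, and the PSMD subunits. PSME proteins are alternative caps, and deubiquitinases such as the USP proteases remove ubiquitin again. In TNF signalling this machinery degrades the inhibitor of NF-kB, and deubiquitinases trim the ubiquitin chains that form on the receptor complex.

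Spots of these genes were read on most arrays, although a deposited value of 0 was common. A 0 was found at between 32.0% and 39.6% of all spots of the arrays used, the files and labels leave it undefined, and it was treated as missing. Of the member spots, 44 of 179 (24.6%) were above 0 on all 22 arrays, against 18.5% of all spots. Among the classes, 12 of 31 proteasome spots, 18 of 79 deubiquitinase spots, 8 of 47 conjugating enzyme spots and 4 of 14 cullin spots were above 0 throughout. The arrays hold spots of both core and cap subunits, but of the catalytic core subunits PSMB5 has a spot of its own under the rule, and the immunoproteasome subunits PSMB8, PSMB9 and PSMB10 were not analysed here.

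The identity of the lines was checked with markers. VIL1 (villin, of the intestinal brush border) was higher in CaCo-2 by 0.11 on the log2 scale (SE 0.017, limma adjusted p = 0.00056) and 1 of 2 spots of the tight junction gene CLDN4 by 0.12 (adjusted p = 0.0056). The other 2 of the 4 tested epithelial spots did not pass and lay below 0, at -0.077 for the second CLDN4 spot and -0.050 for CDH17. Over the monocyte and myeloid list 1 of 8 tested spots, of LST1, was lower in CaCo-2, and the largest of the others was CD4 at 0.21 (SE 0.090, adjusted p = 0.099), while TYROBP was at 0.036. By detection, LAPTM5 was above 0 on 12 of 12 THP-1 arrays and on 1 of 10 CaCo-2 arrays, but the epithelial gene ELF3 was above 0 on 8 CaCo-2 and 0 THP-1 arrays at 1 spot and on 2 and 11 at another. The markers thus went with the labels at some spots and against them at others. Lymphocyte markers have no spot with 1 symbol here, and 0 of 3 tested fibroblast and endothelial spots passed the threshold.

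The first question was whether the lines differ in these genes. CaCo-2 and THP-1 cells were compared with the mean of the differences in unstimulated and TNF-treated cells, which uses every array once. Proteasome genes that differed were all higher in CaCo-2: PSMB5, PSMC4, PSMC6, PSMD1, PSMD2, PSMD5 and PSME4. UBE2Z, the cullins CUL2, CUL4A and CUL7, and the deubiquitinases USP1 and USP7 were higher as well, whereas spots of USP33, USP40 and USP19 were lower. A gene is named here for its spots that passed, and its other spots could differ. The differences were small, from 0.070 to 0.18 on the log2 scale among the spots that were higher, where 0.18 is a 1.13-fold ratio of normalised intensities. Of 92 member spots tested, 24 passed the threshold (limma, Benjamini-Hochberg over all spots, adjusted p of 0.05), 20 higher and 4 lower in CaCo-2. The 20 include PSME3IP1 spot 2, which belongs to none of the classes, at 0.071, and it passed in 9 of 14 alternative settings. Over all 16931 spots tested, 18.2% passed, 13.3% higher and 4.91% lower, beside 26.1% of the members, and the median difference was 0.034 over the members against 0.026 over all spots. Without normalization between arrays 0 of the 92 passed, with 10 at an unadjusted p under 0.05, where 0.514% of all spots passed. Under the other alternative settings the count ran from 6 to 35, over differing numbers of tested members. It was 6 of 179 (3.35%) with log2 of intensity plus 0.1, where 3.87% of all spots passed. With the mean of single and summed columns it was 6 of 109 (5.5%, beside 4.98%), and with array weights 35 of 92 (38%, beside 29.8%). The setting without normalization keeps a division of THP-1 control replicate 3 by 3, described under the processing, and what that did to the count was not tested. Each of the 24 spots passed in between 5 (USP22 spot 1) and 13 (CUL2 spot 1) of 14 alternative settings. A setting that did not test a spot counts there as not passed. With only spots above 0 on every array this held for the spots of PSMC4, PSMD1, PSMD5, PSME4, UBE2C and UBE2Z that passed. The split over all spots, 2245 higher and 832 lower, was 986 and 747 with quantile normalization over values above 0 alone and 30 and 57 with no normalization. Line and array batch cannot be told apart, since the labels give no date or batch for the arrays.

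Among the proteasome genes 7 of 24 tested spots (29.2%) were higher in CaCo-2 and 0 were lower, with a median difference of 0.038. Over all spots 13.3% were higher and 4.91% lower, with a median of 0.026. PSMB5 carries the chymotrypsin-like active site of the proteasome core. Its normalised level on the log2 scale, given to 4 decimals because the arrays lay close together, was -2.0002, -1.9749, -1.9554, -1.9511 and -1.9469 on the 5 unstimulated CaCo-2 arrays and -1.9343, -1.9129, -1.9088, -1.9074 and -1.8893 on the 5 TNF-treated ones. In THP-1 cells it was -2.0521, -2.0395, -2.0221, -2.0075 and -2.0047 without stimulation, and it ran from -2.0513 over a median of -2.0284 to -1.9773 on the 7 TNF-treated arrays. The TNF-treated CaCo-2 arrays all lay above every THP-1 array, while the unstimulated CaCo-2 arrays overlapped with THP-1 at the edge. The difference was 0.085 (SE 0.012, 95% interval 0.061 to 0.11, adjusted p = 0.00011), which is a 1.06-fold ratio.

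PSMC6, an ATPase of the ring that threads substrates into the core, had the largest difference of the 92 member spots. Its level was -2.66, -2.64, -2.62, -2.62 and -2.54 on the unstimulated CaCo-2 arrays and -2.63, -2.55, -2.54, -2.53 and -2.33 on the TNF-treated ones. The THP-1 arrays gave -2.82, -2.78, -2.74, -2.73 and -2.70 without stimulation and ran from -2.79 over a median of -2.73 to -2.70 with TNF. Every CaCo-2 array was above every THP-1 array. The difference was 0.18 (SE 0.026, interval 0.13 to 0.24, adjusted p = 0.00018). Such a lack of overlap, with CaCo-2 above, was found at 3 of 92 members (PSMC6, CUL2 and 1 spot of UBE2Z) and at 0.915% of all spots tested, and with CaCo-2 below at 0 members and 0.159% of all spots.

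PSMC4, another ATPase of the same ring, was 0.090 higher at its tested spot (SE 0.018, adjusted p = 0.0021). Its level was -2.28, -2.23, -2.21, -2.19 and -2.16 in unstimulated CaCo-2 cells and -2.34, -2.33, -2.33, -2.32 and -2.25 in unstimulated THP-1 cells. On the TNF-treated arrays it was -2.27, -2.27, -2.22 and -2.15 in CaCo-2, with the remaining array at 0, and it ran from -2.33 over -2.30 to -2.28 in THP-1. The highest THP-1 arrays thus reached into the CaCo-2 range. The reading of that 0 turned the sign: with a 0 set to the lowest positive value of its array the difference was -0.014 (adjusted p = 0.97). PSMC4 spot 2 could not be tested between the lines and by detection went the other way, above 0 on 3 of 10 CaCo-2 and 9 of 12 THP-1 arrays. It did not pass with a 0 set to that floor (adjusted p = 0.36).

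The cap subunits followed with smaller or less secure values. PSMD1, a large scaffold of the cap, was 0.075 higher at spot 1 (SE 0.016, adjusted p = 0.0042), and its spot 2 was not tested. PSMD1 spot 1 passed in 7 of 14 alternative settings, and the setting with only spots above 0 on every array did not test it. It did not pass with a 0 set to the floor (adjusted p = 0.39). PSMD2, the fellow scaffold of PSMD1, was 0.089 higher at spot 1 (SE 0.026, adjusted p = 0.021) and 0.025 higher at spot 2, which did not pass. PSMD5, an assembly chaperone of the cap base, was 0.11 higher at spot 2 (SE 0.028, adjusted p = 0.012) and -0.038 at spot 1 (SE 0.036). Spot 2 passed in 7 of 14 alternative settings, again untested with only spots above 0 on every array, and turned to -0.037 with the mean of the single and summed columns. PSME4, the alternative cap also called PA200, was 0.11 higher at spot 2 (SE 0.031, adjusted p = 0.028) on 6 CaCo-2 and 10 THP-1 arrays above 0. With a 0 set to the floor the difference at that spot was -0.057. PSME4 spot 1 was above 0 on 7 CaCo-2 and 3 THP-1 arrays and was not tested between the lines.

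The other tested proteasome spots did not pass. PSMD14, the deubiquitinase of the cap, was at 0.071 (SE 0.027, adjusted p = 0.066), PSMA7 of the outer core ring at 0.065 (adjusted p = 0.077) and PSMD10 at 0.040 (adjusted p = 0.085). PSMD4, a ubiquitin receptor of the cap, was at -0.0020 (SE 0.018) and PSMB2 at -0.037 and 0.018 at its 2 spots. The spots of PSMA5 and PSMC1 were measured on too few arrays to be tested. Over the class, 20 of 24 differences were above 0, beside 70.6% of all spots tested.

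Known regulation of proteasome subunit genes acts through antioxidant response elements, which bind NRF1 and NRF2 with small MAF proteins. The promoters of 4 proteasome genes that were higher in CaCo-2 are therefore shown, the first 2 being the genes with the smallest p-values, and the others carrying the core of that element. They are RefSeq windows of build GRCh38.p14, from 250 bases before to 50 after the first listed start, in lower case, with capitals for each match to one of the 3 motifs searched on both strands. These were TGACNNNGC (antioxidant response element core), CCGGAAGT (ETS core) and CCAAT (the CCAAT box). The array files give no sequence of the spotted cDNAs.
PSMB5, chr14:23035171-23035470, minus strand: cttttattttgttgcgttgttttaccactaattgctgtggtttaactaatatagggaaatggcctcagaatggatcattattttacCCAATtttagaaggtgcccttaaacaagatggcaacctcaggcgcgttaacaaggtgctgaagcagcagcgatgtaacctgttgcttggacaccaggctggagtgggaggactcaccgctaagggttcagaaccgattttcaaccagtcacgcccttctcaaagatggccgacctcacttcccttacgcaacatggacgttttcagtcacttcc
PSMC6, chr14:52706950-52707249, plus strand: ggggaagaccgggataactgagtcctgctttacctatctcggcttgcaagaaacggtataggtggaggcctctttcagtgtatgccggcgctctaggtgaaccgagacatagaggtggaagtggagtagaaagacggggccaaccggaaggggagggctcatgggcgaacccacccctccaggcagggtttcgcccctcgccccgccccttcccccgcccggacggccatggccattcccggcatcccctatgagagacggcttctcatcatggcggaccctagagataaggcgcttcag
PSMC4, chr19:39970915-39971214, plus strand: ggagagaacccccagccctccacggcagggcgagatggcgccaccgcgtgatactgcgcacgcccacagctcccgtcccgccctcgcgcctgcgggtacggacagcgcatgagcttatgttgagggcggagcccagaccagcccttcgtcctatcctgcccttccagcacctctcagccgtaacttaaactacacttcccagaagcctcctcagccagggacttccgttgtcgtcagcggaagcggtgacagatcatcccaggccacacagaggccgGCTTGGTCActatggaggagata
PSMD1, chr2:231056617-231056916, plus strand: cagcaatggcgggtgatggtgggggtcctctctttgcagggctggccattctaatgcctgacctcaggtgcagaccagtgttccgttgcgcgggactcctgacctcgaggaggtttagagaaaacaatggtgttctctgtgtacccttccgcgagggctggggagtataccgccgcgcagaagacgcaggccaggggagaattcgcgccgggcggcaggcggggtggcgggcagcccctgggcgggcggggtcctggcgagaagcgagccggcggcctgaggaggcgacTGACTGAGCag

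PSMB5 shows 1 CCAAT match and PSMC6 none of the 3 motifs in this window. PSMC4 holds the response element core as GCTTGGTCA, on the opposite strand, and PSMD1 as TGACTGAGC. A promoter was found for 75 of the 93 member genes. The response element core occurred in 7 of 19 proteasome promoters (36.8%) against 13.6% of 27305 promoters of the same length, in PSMC4, PSMD1, PSMD3, PSMD5, PSMD9, PSMD12 and PSME4. The ETS core occurred in 5 of 19 (26.3%) against 4.44%, in PSMC1, PSMC2, PSMD12, PSMD14 and PSME4. Conjugating enzyme promoters had the response element core in 3 of 16, deubiquitinase promoters in 3 of 29 and cullin promoters in 1 of 6. The CCAAT box was in 8 of 19 proteasome promoters (42.1%) and in 35.7% of all. These matches are letters in a window, and binding was not measured.

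**Figure D1:**
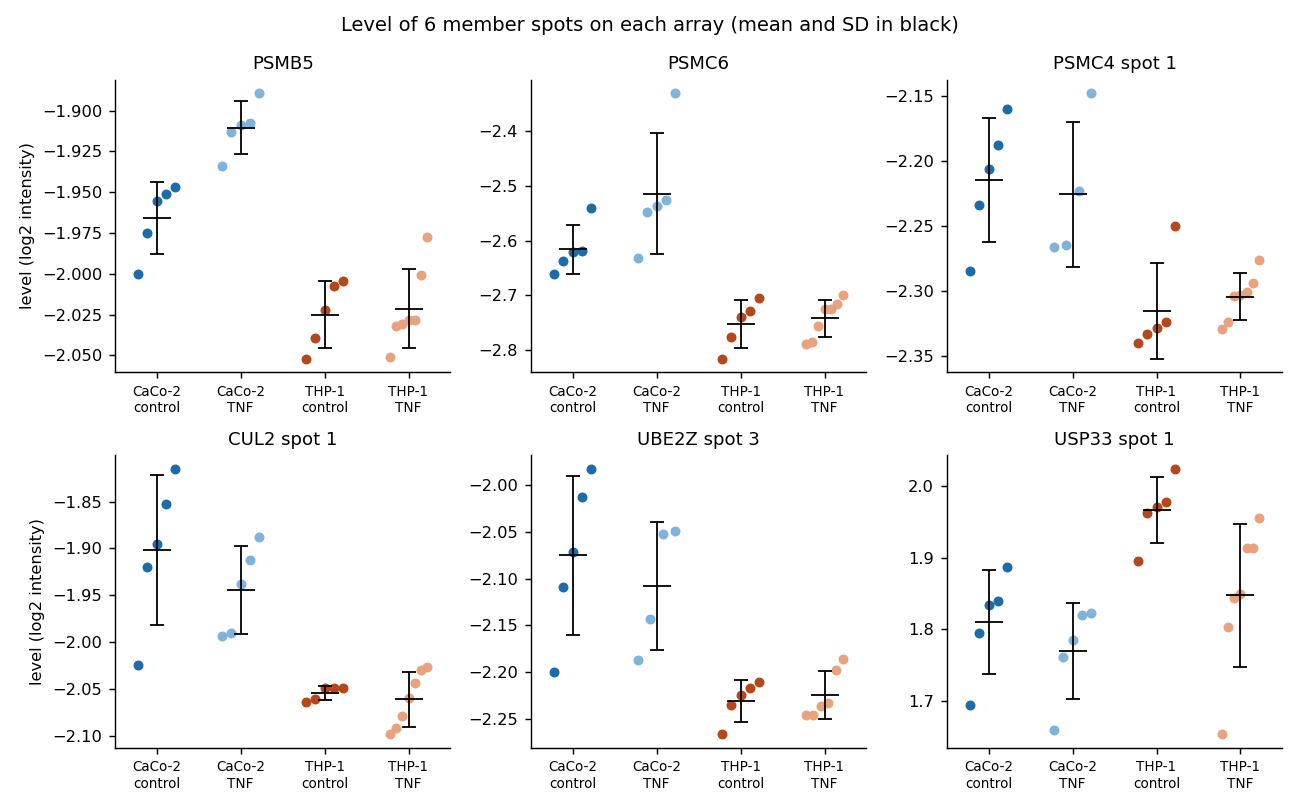
Normalised level on the log2 intensity scale of 6 member spots on every array with a value above 0, by line and treatment, with the mean and SD in black and a separate vertical scale for each spot. PSMC6 and CUL2 show every CaCo-2 array above every THP-1 array, and USP33 lies lower in CaCo-2.

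The E2 genes differed mainly through UBE2Z, which takes ubiquitin from the activating enzyme UBA6 rather than from UBA1. All 4 of its tested spots were higher in CaCo-2 and passed, by 0.094 (SE 0.019, adjusted p = 0.0032) at spot 1, 0.075 (adjusted p = 0.015) at spot 2, 0.14 (SE 0.024, adjusted p = 0.0012) at spot 3 and 0.070 (adjusted p = 0.020) at spot 4. At spot 3 the level was -2.20, -2.11, -2.07, -2.01 and -1.98 in unstimulated CaCo-2 and -2.27, -2.24, -2.22, -2.22 and -2.21 in unstimulated THP-1. With TNF it was -2.19, -2.14, -2.05 and -2.05 on 4 CaCo-2 arrays, and on 6 THP-1 arrays it ran from -2.25 over -2.23 to -2.19. The lines overlapped at this spot only at the lowest CaCo-2 arrays. Spots of 1 gene share their target and are not replicates of the condition, and with a 0 set to the floor 0 of these 4 spots passed (adjusted p = 0.76 at spot 3).

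UBE2C, the E2 of the anaphase-promoting complex in mitosis, was higher at spot 4 by 0.077 (SE 0.016, adjusted p = 0.0032). Its level there was -1.36, -1.34, -1.32, -1.30 and -1.26 on the unstimulated CaCo-2 arrays and -1.40, -1.39, -1.38, -1.38 and -1.38 on the unstimulated THP-1 arrays. With TNF it was -1.31, -1.30, -1.29, -1.26 and -1.26 in CaCo-2 and -1.41, -1.40, -1.37, -1.35 and -1.31 on 5 THP-1 arrays. The unstimulated groups did not overlap, and the TNF-treated groups met at the highest THP-1 array. The other tested UBE2C spots were at -0.024 and 0.070 and did not pass. Of the class, 5 of 24 tested spots (20.8%) passed, all higher, close to the 18.2% of all spots, and the median difference was 0.034. UBE2N, which builds K63-linked ubiquitin chains with its partner UBE2V1 or UBE2V2, was at -0.023 (SE 0.026) and 0.014 (SE 0.016) at its tested spots. UBE2J2, an E2 of the endoplasmic reticulum membrane, was at 0.038 (SE 0.013, adjusted p = 0.057). UBE2L6, the E2 of the interferon-induced modifier ISG15, could not be tested at either of its spots.

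Among the cullins 3 of 8 tested spots (37.5%) were higher in CaCo-2 and 0 lower, beside 13.3% higher and 4.91% lower over all spots. CUL2, the scaffold of the ligase that holds the VHL protein, gave -2.02, -1.92, -1.90, -1.85 and -1.81 in unstimulated CaCo-2 and -1.99, -1.99, -1.94, -1.91 and -1.89 after TNF. In THP-1 it was -2.06, -2.06, -2.05, -2.05 and -2.05 without stimulation and ran from -2.10 over -2.06 to -2.03 with TNF. Every CaCo-2 array lay above every THP-1 array. The difference was 0.13 (SE 0.020, interval 0.093 to 0.18, adjusted p = 0.00027), and it passed in 13 of 14 alternative settings, the exception being no normalization. These values are of CUL2 spot 1. CUL2 spot 2 was above 0 on 4 CaCo-2 and 5 THP-1 arrays and was not tested between the lines.

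CUL4A, the scaffold of the ligase with the DDB1 adaptor, was higher at spot 1 by 0.11 (SE 0.021, adjusted p = 0.0018), and its spots 2 and 3 were at -0.017 (SE 0.026) and -0.021 (SE 0.028). The level at spot 1 was -2.22, -2.18, -2.17, -2.08 and -2.05 in unstimulated CaCo-2 and -2.29, -2.27, -2.24, -2.22 and -2.19 in unstimulated THP-1, with an overlap between the lowest CaCo-2 and the highest THP-1 arrays. CUL7 was higher at spot 1 by 0.083 (SE 0.022, adjusted p = 0.012) and at -0.098 at spot 2, which did not pass. The single spot of CUL1, the scaffold of the SCF ligases, was above 0 on 2 TNF-treated CaCo-2 arrays and was not tested.

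The deubiquitinases went both ways, with 4 of 33 tested spots higher and 4 lower. Together 24.2% of them passed, beside 18.2% of all spots. USP1, which acts on monoubiquitinated FANCD2 and PCNA in DNA repair, was 0.081 higher in CaCo-2 at spot 1 (SE 0.019, adjusted p = 0.0059). Its level there was -2.45, -2.40, -2.38, -2.35 and -2.25 in unstimulated CaCo-2 and -2.46, -2.44, -2.44, -2.42 and -2.41 in unstimulated THP-1, so that the lowest CaCo-2 array lay within the THP-1 range. USP1 spot 2 was above 0 on 5 CaCo-2 and 5 THP-1 arrays and was not tested in the mean over treatments. USP7, which stabilises MDM2 and p53, was 0.083 higher at spot 2 (SE 0.019, adjusted p = 0.0057), and its spot 1 was not tested. USP48 was 0.098 higher at spot 4 (SE 0.030, adjusted p = 0.028), and its 3 other tested spots did not pass.

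USP33 was the clearest deubiquitinase lower in CaCo-2, and the only lower one that passed in more than 10 of 14 alternatives (11). Its level was 1.69, 1.80, 1.83, 1.84 and 1.89 in unstimulated CaCo-2 and 1.66, 1.76, 1.78, 1.82 and 1.82 after TNF. In THP-1 it was 1.89, 1.96, 1.97, 1.98 and 2.02 without stimulation, and ran from 1.65 over 1.85 to 1.96 with TNF. The unstimulated groups were just apart, and the TNF-treated groups overlapped. The difference was -0.12 (SE 0.034, interval -0.19 to -0.047, adjusted p = 0.020). These values are of USP33 spot 1. USP33 spot 2 was above 0 on 4 CaCo-2 and 5 THP-1 arrays and was not tested between the lines. USP40 was lower at spot 1, at -0.14 (SE 0.042, adjusted p = 0.024), and USP19, an enzyme anchored in the endoplasmic reticulum, was at -0.10 (SE 0.031, adjusted p = 0.028). USP40 passed in 9 of 14 alternatives and USP19 in 7, and all 3 of these genes lost the call with the replicate number as a block. Of the 3 tested USP40 spots 2 were below 0 and 1 above, at 0.027, which did not pass. USP40 spot 4 was not tested between the lines. It was above 0 on 9 of 10 CaCo-2 and 5 of 12 THP-1 arrays, and passed with a 0 set to the floor (limma adjusted p = 0.020).

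**Figure D2:**
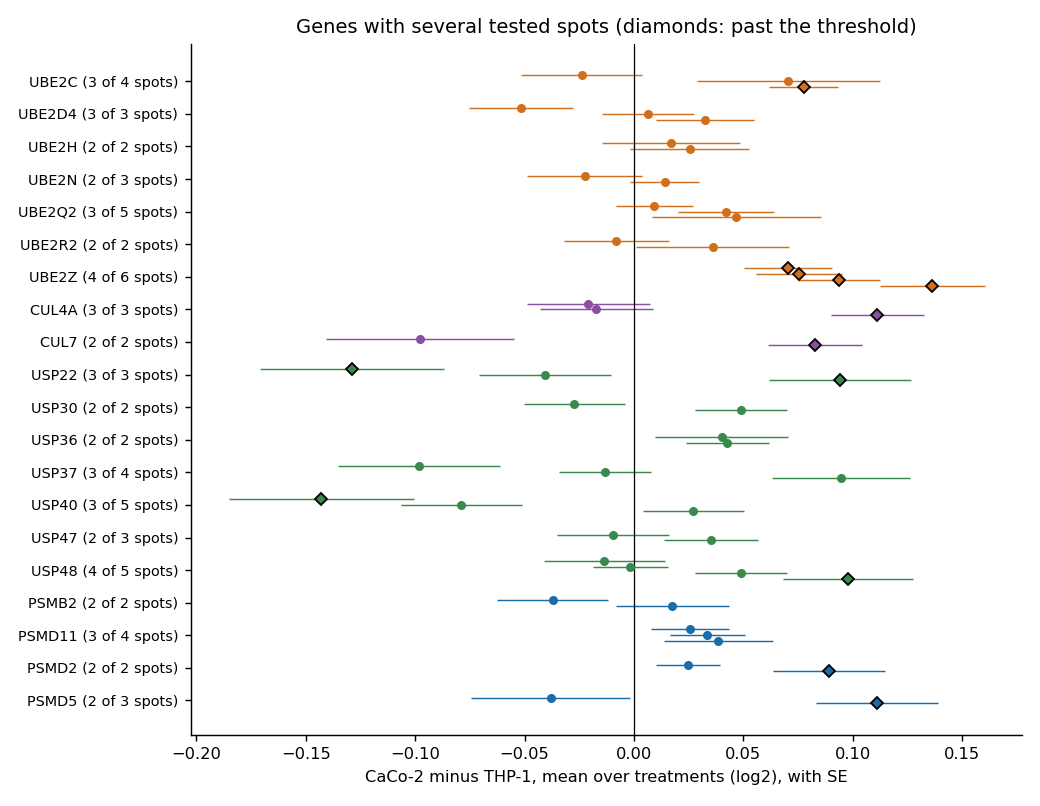
Difference between lines (CaCo-2 minus THP-1, log2, mean over treatments, bars for 1 SE) of every tested spot of the 20 genes with several tested spots, coloured by class, diamonds passing the threshold. All 4 tested spots of UBE2Z lie to the right of 0 past the threshold, while USP22 passes on both sides.

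Spots of the same gene often gave different values. Of 20 genes with several tested spots, 6 had all spots on the same side of 0, each of them higher in CaCo-2 (PSMD2, PSMD11, UBE2H, UBE2Q2, UBE2Z and USP36). USP22, the deubiquitinase of the SAGA complex, passed in both directions, with 0.094 at spot 1 (adjusted p = 0.046) and -0.13 at spot 3 (adjusted p = 0.038). These calls were not stable: spot 1 passed in 5 of 14 alternative settings and in 8 of 22 fits that left out 1 array, and spot 3 in 8 and 10. Such spots may hold other parts of the transcript, and the files do not give their sequences, so a value belongs to the spot and not to the gene as a whole.

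Some members differed in how often they were above 0. USP11 was above 0 on 9 of 10 CaCo-2 arrays and on 2 of 12 THP-1 arrays, and USP28 on 9 and 3. UBE2T, the E2 of the Fanconi anaemia pathway, was above 0 on 10 CaCo-2 and 6 THP-1 arrays. UBE2J1, an E2 of the endoplasmic reticulum membrane, went the other way, with 4 of 10 CaCo-2 and 12 of 12 THP-1 arrays at spot 4, and 6 and 12 at spot 5. Its spot 3 had the opposite pattern, with 9 CaCo-2 and 6 THP-1 arrays, and its spot 1 was above 0 on all 22 arrays with a difference of 7.1e-05, so the gene has no single direction. Apart from that spot 1, these spots were measured on too few arrays of a group for the main test. With a 0 set to the lowest positive value of its array, USP11 (adjusted p = 0.0055), USP28 (0.033), UBE2T (0.031) and UBE2J1 spot 4 (0.038) passed, among 11 of 179 members (6.15%), where 4.42% of all spots passed in that setting. UBE2J1 spot 3 did not (0.23). There were 6 member spots at 0 on all THP-1 arrays and above 0 on at most 5 CaCo-2 arrays, CUL4B spot 1 and UBE2U among them, and 3 spots at 0 on all CaCo-2 arrays and above 0 on at most 2 THP-1 arrays. These are 3.35% and 1.68% of the members, near the 3.46% and 1.17% of all spots. Because a 0 has no stated meaning, these counts are descriptions.

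The difference between lines was then measured on separate arrays. In unstimulated cells 3 of 107 member spots passed, all higher in CaCo-2 (CUL2 by 0.15, PSMC4 by 0.10 and UBE2Z spot 3 by 0.16), where 1.56% of all 19420 spots passed, 1.09% higher and 0.474% lower. In TNF-treated cells 10 of 115 passed, all higher, where 3.67% of all 20750 spots passed, 3.15% higher and 0.52% lower. Those were CUL2, CUL4A, PSMB5, PSMC6, PSMD1, PSMD5, UBE2C, USP1, USP7 and a spot of USP34, with PSMC6 at 0.23 (SE 0.035, adjusted p = 0.0020) and PSMB5 at 0.11 (SE 0.016, adjusted p = 0.00098). Over the 92 spots tested in both, 72 (78.3%) had the same sign in both comparisons, against 78.0% of all spots, and Pearson's r across spots was 0.72 for the members and 0.70 for all, given as a description. The comparisons share no array, but some arrays of different groups deviated from their group means together, such as unstimulated CaCo-2 replicate 5 with TNF-treated CaCo-2 replicate 6 (r = 0.73 across spots), so they are not fully independent. The counts rest on few arrays: in unstimulated cells leaving out 1 array gave from 1 (THP-1 replicate 2 or 4, or CaCo-2 replicate 2 or 3) to 10 (CaCo-2 replicate 1). In TNF-treated cells it gave from 3 (THP-1 replicate 1 or 2) to 24 (THP-1 replicate 8), with 4 without THP-1 replicate 4, 5 without THP-1 replicate 6 and 6 without CaCo-2 replicate 6. Over all spots the fits without 1 array gave 77 to 1143 in unstimulated and 255 to 2128 in TNF-treated cells.

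**Figure D3:**
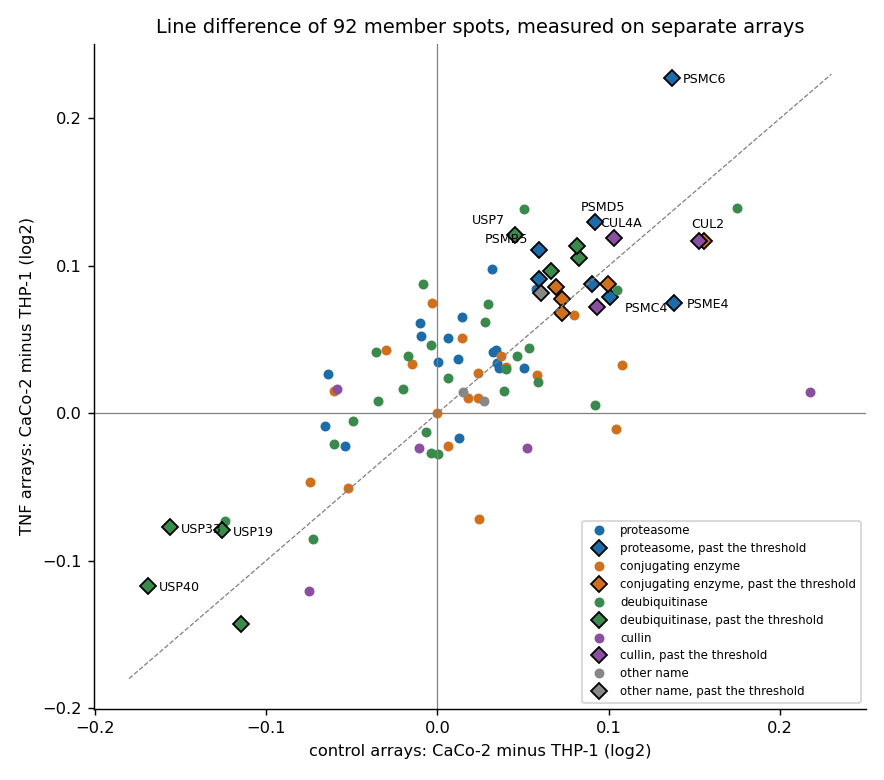
Difference between lines (CaCo-2 minus THP-1, log2) of 92 member spots in unstimulated cells, on the horizontal axis, and in TNF-treated cells, on the vertical axis, coloured by class, with diamonds for spots past the threshold in the mean of both and a dashed line of equal values. Most points lie above 0 on both axes, with 56 spots higher in CaCo-2 in both and 16 lower in both.

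Whether a spot differed also moved with its brightness. All tested spots were divided by their mean level into 4 bins of equal size. In the dimmest bin the median difference was 0.030 over all spots and 0.035 over 23 members, and in the brightest it was -0.00055 over all spots and 0.0033 over 16 members. Of the member spots past the threshold, 5 were higher in the dimmest bin, 6 in the next, 7 higher and 2 lower in the third, and 2 higher and 2 lower in the brightest. Over all spots 387, 749, 684 and 425 were higher and 23, 82, 212 and 515 lower from the dimmest to the brightest of these bins, so that the share past the threshold ran from 9.69% to 22.2%. Of the 24 tested proteasome spots, 4 lay in the brightest bin. The part of level in the difference between lines was not tested.

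**Figure D4:**
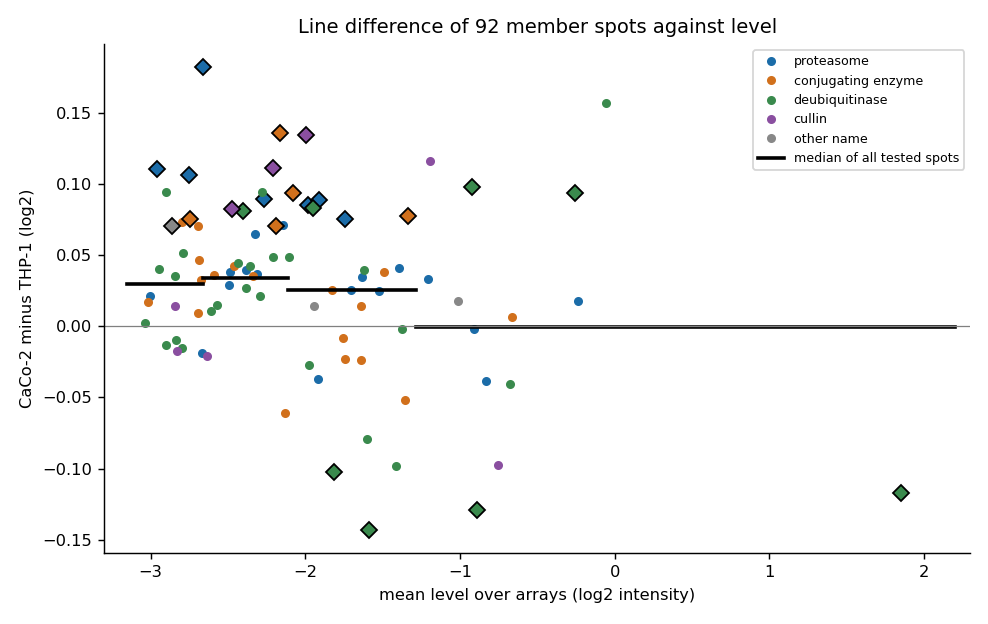
Difference between lines (CaCo-2 minus THP-1, log2) of the 92 tested member spots against their mean level over arrays, coloured by class, diamonds past the threshold, with black bars for the median of all tested spots in each bin of level. The bars fall from 0.030 and 0.034 in the dimmer bins to -0.00055 in the brightest, and PSMC6 is the highest diamond.

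The main question of the design was the response to TNF. Arrays were not paired across treatments in this fit, although some unstimulated and TNF-treated CaCo-2 arrays deviated together. In CaCo-2 cells 0 of 107 tested member spots changed after 60 min (limma), and 0% of all 19479 spots did. At an unadjusted p under 0.05 there were 5 members (4.67%) and 3.79% of all spots. These were PSMB5 with a difference of 0.055 (SE 0.017, p = 0.0039), PSMC6 with 0.10 (SE 0.038), USP7 spot 2 with 0.068, USP53 spot 2 with 0.095 (SE 0.032) and UBE2D4 spot 2 with 0.078, each with an adjusted p of 1.00. The 95% intervals lay within 0.25 of 0 on the log2 scale for 105 of 107 spots, where 0.25 upward is an increase of 18.9% in normalised intensity. By class, the median difference was 0.018 over 25 proteasome spots, -0.0018 over 30 conjugating enzyme spots, 0.0068 over 40 deubiquitinase spots and -0.017 over 9 cullin spots, beside 0.0087 over all spots.

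In THP-1 cells 0 of 122 tested member spots changed, and 0% of all 21989 spots did. At an unadjusted p under 0.05 there were 3 members (2.46%) and 2.38% of all spots: USP33 at -0.12 (SE 0.046, p = 0.016), USP19 at -0.089 (SE 0.043) and CUL5 spot 3 at 0.048 (SE 0.023), each with an adjusted p of 1.00. The intervals lay within 0.25 of 0 for 119 of 122 spots. The median difference was -0.0051 over 27 proteasome spots, 0.0030 over 31 conjugating enzyme spots, -0.0058 over 47 deubiquitinase spots and 0.0015 over 11 cullin spots. Neither epithelial nor myeloid markers held a spot that passed in a TNF comparison.

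Lastly, the response was compared between the lines. The difference between the TNF effects (CaCo-2 minus THP-1) passed for 0 of 92 members and 0% of 16931 spots, with 3 members (3.26%) and 2.63% of all spots at an unadjusted p under 0.05. PSMB5 gave 0.051 (interval 0.0031 to 0.10), USP53 spot 2 gave 0.096 (interval 0.0049 to 0.19) and CUL5 spot 3 gave -0.076 (interval -0.15 to -0.0042). Its intervals lay within 0.25 of 0 for 89 of 92 spots.

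**Figure D5:**
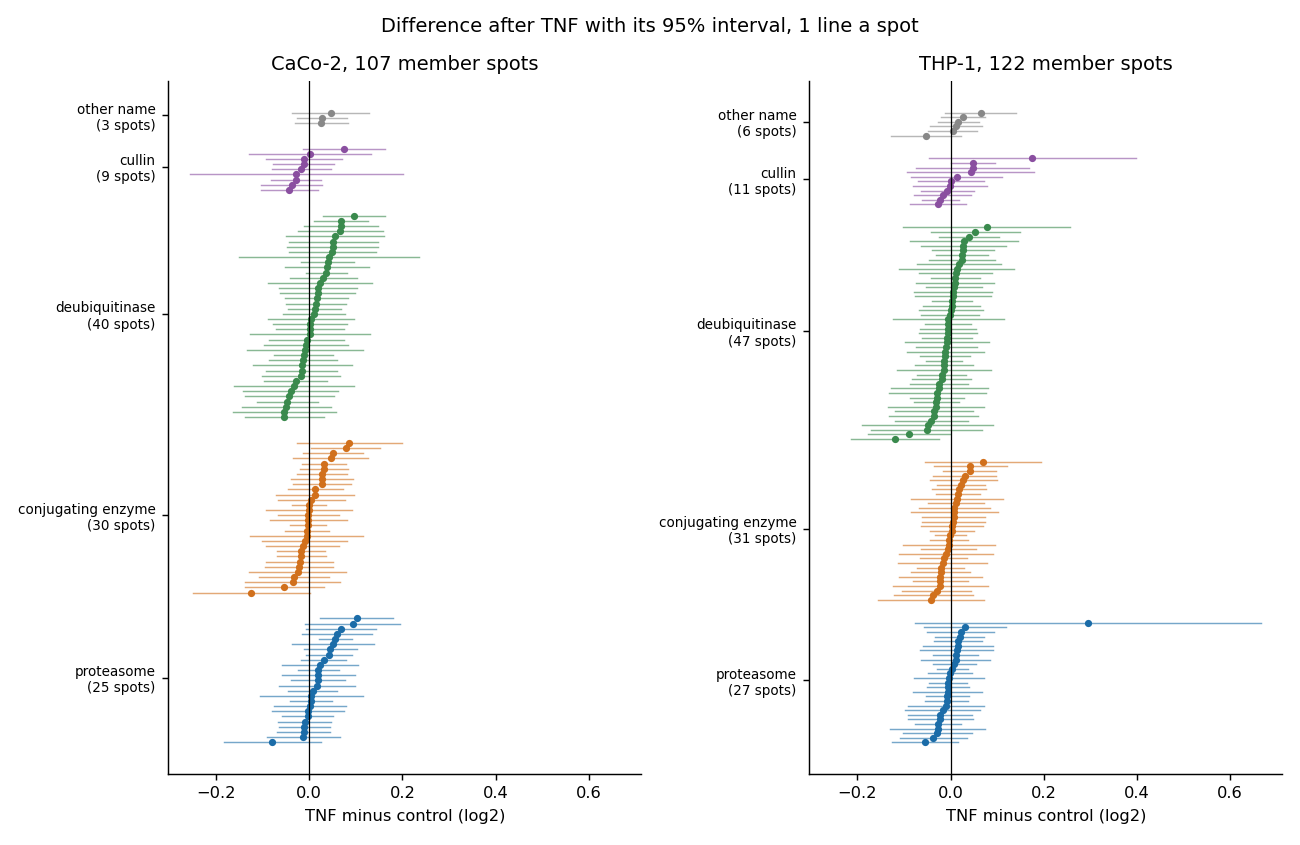
Difference after TNF (TNF minus control, log2) of every tested member spot in CaCo-2 (107 spots) and THP-1 (122 spots), sorted within class, with lines for the 95% interval. The points of every class scatter about 0, and 0 spots passed the threshold in either line.

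Genes that work with the members were read from lists. Of the ubiquitin and activating enzyme list 2 of 3 tested spots were higher in CaCo-2, of UBB, a ubiquitin gene, by 0.17 (SE 0.045, adjusted p = 0.012), and of SAE1, a subunit of the SUMO E1, by 0.088. Of the ubiquitin-like modifiers 2 of 8 were higher, of SUMO2 by 0.10 and URM1 by 0.044. Of the proteasome assembly and regulation list 4 of 21 spots were higher and 2 lower. POMP, the chaperone of the core, was higher by 0.067 at 1 of its spots, SEM1, a small cap subunit, by 0.067 and PAAF1 by 0.062, while NFE2L2 (NRF2) was at -0.095 (adjusted p = 0.017) and UFD1 passed in both directions, at 0.089 and -0.15.

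Of the cullin partners 4 of 29 spots were higher and 1 lower. RBX1, the RING subunit that binds the E2 to the cullin, was higher by 0.065, and the COP9 signalosome subunits COPS3 by 0.093, COPS6 by 0.10 and COPS7A by 0.068. VHL, the substrate receptor of the CUL2 ligase, was at -0.16 at 1 spot (SE 0.026, adjusted p = 0.00042). Among other ligases 0 of 19 spots were higher and 1 lower, of UBR1 at -0.17, and in the list of other deubiquitinases 2 of 14 were higher, of CYLD by 0.067 and of SENP5, a SUMO protease, by 0.16. A second tested SENP5 spot was at -0.083 (adjusted p = 0.061). In the TNF comparisons and in their difference between lines no spot of these lists passed. These counts stand beside the 18.2% of all spots that passed between the lines.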

How the data were processed

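cDNA of both lines was labelled with 33P and hybridised to cDNA membranes, per the labels' protocols. The authors deposited 1 linear intensity per spot and column, judging from the range of values. How images were read and scaled is not stated in the labels. Of 33 columns, 10 are sums that include a single column and were dropped. Among them, CaCo-2 control replicate 8 includes CaCo-2 TNF replicate 3, which has the opposite label, so this single column was left out too. A further column without a partner, THP-1 control replicate 3, was taken as summed from its wide spread of values and divided by 3. Its share of spots at 0 was 32.1%. That lies among the single columns, at 32.0% to 39.6%, and not among the dropped sums, at 17.2% to 22.3%. Negative codes and 0 were missing, with 0 at the array's lowest positive value only during quantile normalization. The log2 values were fitted with limma 3.58.1 (R 4.3.3; lmFit, eBayes with a trend, all 4 groups), two-sided, over spots measured on at least 3 arrays of each group, with p-values adjusted (Benjamini-Hochberg) across the whole array and called at 0.05. The script was tested on simulated data. The number of arrays limits the precision.

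Genes are named by the platform annotation, whose symbols and identifiers matched the reference table for all 179 member spots. Named spots are all those past the threshold, the smallest p-values of each class and a list of well-known members; USP11, USP28, UBE2T, UBE2J1, UBE2U and the spots of genes with several spots were chosen after their values were seen, as were PSMA7, PSMD10 and the promoters shown. The members and lists were chosen with earlier results of these data known. A member on the Y chromosome is counted but given no values. Alternatives changed the treatment of 0, normalization, filters, model, columns, array weights and arrays used.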

Additional observations from a re-analysis of the deposited data

Results flagged for a closer look

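Among 94 sets of values, each a spot past the threshold in some comparison in 1 group with at least 4 arrays above 0, 8 values, on 5 arrays, stood apart from the rest of their group by Dixon's test, where chance gives about 1 in 20, or 4.7. PSMC4 spot 1 was at -2.25 on unstimulated THP-1 replicate 7, above the other arrays at -2.34 to -2.32. PSMD1 spot 1 was at -1.77 on unstimulated THP-1 replicate 3, above -1.79 to -1.78. On TNF-treated THP-1 replicate 8, 3 spots were high: PSMD2 spot 1 at -1.78 (the others at -2.01 to -1.91), UBE2Z spot 4 at -2.12 (-2.25 to -2.20) and USP7 spot 2 at -1.89 (-2.03 to -1.98). On unstimulated CaCo-2 replicate 1, USP40 spot 1 was at -1.51 (-1.73 to -1.67) and USP48 spot 4 at -0.74 (-0.95 to -0.90). USP7 spot 2 was at -1.92 on TNF-treated CaCo-2 replicate 2, below -1.87 to -1.86.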

How the results depend on the processing

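The TNF comparisons and their difference between lines kept a count of 0 members under every alternative run. Over all spots the count was not always 0. In CaCo-2 it was 21 (0.0608%) with a 0 set to the lowest positive value, 31 (0.0897%) with log2 of intensity plus 0.1 and 22 (0.0911%) with the mean of single and summed columns. In THP-1 it was at most 4, in a fit that left out 1 array. The difference between lines gave 4 (0.0197%) with the mean of single and summed columns. The mean line difference (24 members) gave 11 with a 0 set to the lowest positive value, 6 with log2 of intensity plus 0.1, 0 without normalization, 6 with the mean of single and summed columns and 14 of 60 genes with the mean over the spots of a gene, where 4.42%, 3.87%, 0.514%, 4.98% and 17.5% of all features passed. Of the members tested, those counts were 6.15%, 3.35%, 0%, 5.5% and 23.3%. In unstimulated cells (3) the count was 0 with a 0 at the floor, the added 0.1, no normalization, array medians, only the 2 groups in the fit or quantile normalization over values above 0 alone. From 0.036% (no normalization) to 0.587% (floor) of all spots passed in those settings. It was 1 with only spots above 0 on every array, the replicate block or the mean of columns, and 10 with array weights, where the share of all spots was 4.22%, 0.396%, 0.65% and 7.21%. Of the members tested, these counts were 2.27%, 0.935%, 0.806% and 9.35%. In TNF-treated cells (10 of 115) it was 3 of 179 with a 0 at the floor (1.68%, beside 1.09% of all spots). It was 6 of 44 with only spots above 0 on every array (13.6%, beside 4.89%) and 6 of 115 with only the groups compared (5.22%, beside 2.14%). With the added 0.1 or no normalization it was 0, where 0.909% and 0.0337% of all spots passed. It was 2 with the mean of columns (1.54%, beside 0.238%), the pair of opposite labels kept (1.54%, beside 1.3%) or quantile normalization over values above 0 alone (1.74%, beside 0.786%). Array weights gave 27 of 115 (23.5%, beside 14.5%). Leaving out 1 array gave 20 to 34, 1 to 10 and 3 to 24 members in these 3 comparisons. Over all spots the same fits gave 2178 to 4407, 77 to 1143 and 255 to 2128. The normalization over values above 0 alone was chosen after seeing the data. With array weights, 35 members and 29.8% of all spots passed in the mean. PSMC4 spot 1 turned to -0.014 (floor) and -0.10 (added 0.1), PSMD5 spot 2 to -0.037 (mean of columns), and PSME4 spot 2 to -0.057 (floor), -0.29 (added 0.1), -0.036 (no normalization) and -0.35 (mean of columns). The causes were not tested. Replicate numbers rarely marked the arrays most alike: over 25 pairs of the same number the correlation of deviations ran from -0.49 to 0.67, 10 were over 0.1, and 2 of 20 arrays were most like a namesake. The highest correlations across groups were between unstimulated and TNF-treated CaCo-2 arrays, such as replicate 5 with replicate 6 (0.73) and replicate 1 with replicate 1 (0.67). Whether such arrays share a batch was not tested, and the main TNF comparisons did not pair them.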
